A study of Mus musculus with 5 samples.

Results

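The 31 genes described here are the mouse orthologues of genes that are recurrently mutated in human acute myeloid leukaemia (AML). They were taken by name, 31 out of 21627 protein-coding genes in all (chromosomes 1 to 19 and X), and each was set against a list of chromatin sites at which binding of the transcription factor PU.1 was called. The list comes from chromatin immunoprecipitation and sequencing (ChIP-seq) with the PU.1 antibody T-21 in AML246, 1 mouse leukaemia on the C57BL/6 strain that lacks p53 and carries a GFP-linked hairpin against PU.1. Spleen cells came from leukaemic recipients given doxycycline (Dox) for 2 days, which shuts the hairpin down so that endogenous PU.1 returns (PU.1 High, 3 libraries), or from untreated recipients, in which the hairpin stays on (PU.1 Low, 2 libraries). Both groups share the p53-/- background, the hairpin and the tissue. The labels call the libraries of a group technical replicates, so they need not stem from different mice, and they give neither the age of the mice nor a purification of the leukaemic cells from the host's own spleen cells.

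PU.1, encoded by Spi1, is an ETS-family factor that drives myeloid differentiation and binds DNA at purine-rich stretches with a GGAA core. The genes recurrently mutated in AML fall into a few classes. Some set or remove DNA methylation, and others carry growth signals through RAS and kinases. Still others belong to Polycomb and histone-modifying complexes, to the cohesin complex or to the splicing machinery. The comparison asks which of these genes lie near chromatin that PU.1 bound more strongly after its return.

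The data are 1 list of summits for the series, with no value per library. Its name sets high against low, so it is read as sites bound more strongly in PU.1 High than in PU.1 Low cells, although the calling settings are unknown. Of 11111 summits, 11106 lay on the chromosomes used, and their scores had a median of 8.56 with quartiles of 5.78 and 11.9. The score is the authors' peak-caller value on a −log10 scale, so it ranks how clearly a site stood out and is not a fold change of binding. Depth is unknown, the spread between libraries cannot be given, and no value below tests Dox-treated against untreated mice. At Spi1 itself the nearest site lay 1.40 kb from the gene with a score of 8.31. Expression was not measured, so neither the identity of the cells nor the RNA level of any of these genes can be checked.

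Of the 31 AML driver genes, 10 had a site within 10 kb of either end (32.3%, 95% Wilson interval 18.6 to 49.9), against 4828 of the 21596 other protein-coding genes (22.4%). The background lies inside the interval, so the share of driver genes with a nearby site was not distinguishable from that of other genes. The 10 genes were Dnmt3a, Ptpn11, Nf1, Cbl, Asxl1, Suz12, Kmt2d, Kdm6a, Bcorl1 and Sf3b1. Some of them rest on weak sites. The only site within 10 kb of Suz12 scored above 0.99% of all sites and that of Dnmt3a above 5.56%. At a score of at least 10, 4 of the 10 genes were left. A further 11 genes had a site inside or within 50 kb but none within 10 kb of an end, which brings the count at that distance to 21 of 31 (67.7%, interval 50.1 to 81.4) against a background of 50.3%. The remaining 10 genes had 0 sites within 50 kb. Intervals cover counting error only, and genes are no replicates of the cells.

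**Figure D1:**
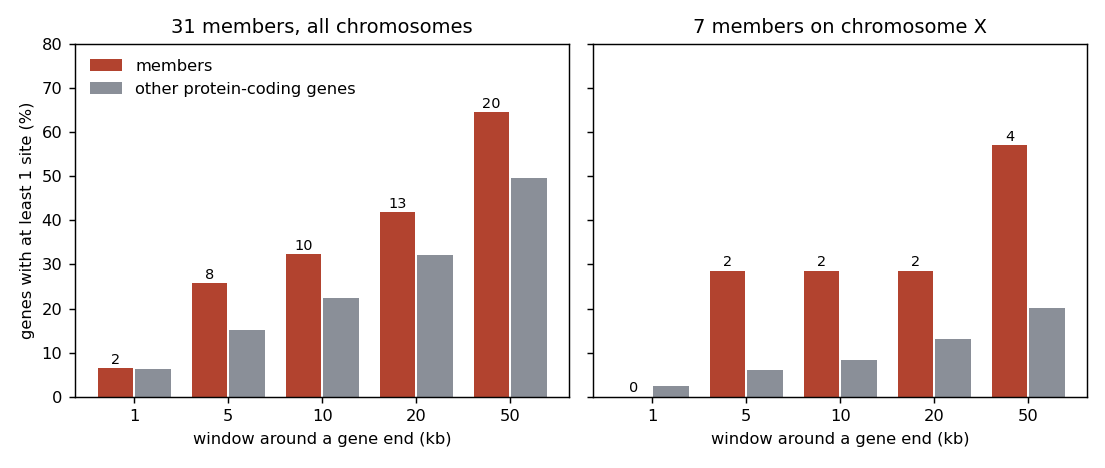
Share of genes (%, y axis) with at least 1 site within 1, 5, 10, 20 or 50 kb of a gene end (x axis), for the driver genes (red, number of genes above each bar) and the other protein-coding genes (grey). At 1 kb the 2 shares were 6.45% and 6.41%, and at 50 kb 64.5% and 49.5%. The right panel holds only the 7 driver genes on chromosome X, set against the other genes of that chromosome.

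The driver genes are long, with a median length of 45.5 kb against 17.3 kb for the other genes, and longer genes had sites more often. A site lay inside 12 of the 31 driver genes (38.7%, interval 23.7 to 56.2), against 16.6% of the other genes. Among genes at least as long as the median driver gene, it was 10 of 16 (62.5%, interval 38.6 to 81.5) against 36.7%. Among shorter genes, it was 2 of 15 (13.3%) against 9.96%. The same division gave, within 10 kb of an end, 7 of 16 long driver genes (43.8%, interval 23.1 to 66.8) against 24.4%, and 3 of 15 short ones against 21.7%. Inside or within 50 kb, the counts were 11 of 16 (68.8%) against 58.7% for long genes and 10 of 15 (66.7%) against 47.5% for short ones. For sites inside genes, the background lay below the interval over all lengths and just below it among long genes. Within 10 kb of an end of long genes, it lay inside the interval. The part that gene length plays was not tested beyond this division.

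In all, 56 sites lay inside or within 50 kb of a driver gene, each counted for 1 gene. Of these, 21 were inside the gene, 23 were upstream and 12 downstream of it, by the strand that RefSeq gives. Their scores ran from 1.35 to 19.1 with a median of 8.83 and quartiles of 5.01 and 11.3, against 8.56, 5.78 and 11.9 for the whole list, and 23 of them (41.1%) scored at least 10, against 37.4% of all sites. The 35 sites outside the genes were often closer to a neighbour. Only 13 of them had the driver gene's own end as the nearest end of any protein-coding gene, against 19 of the 21 sites inside.

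**Figure D2:**
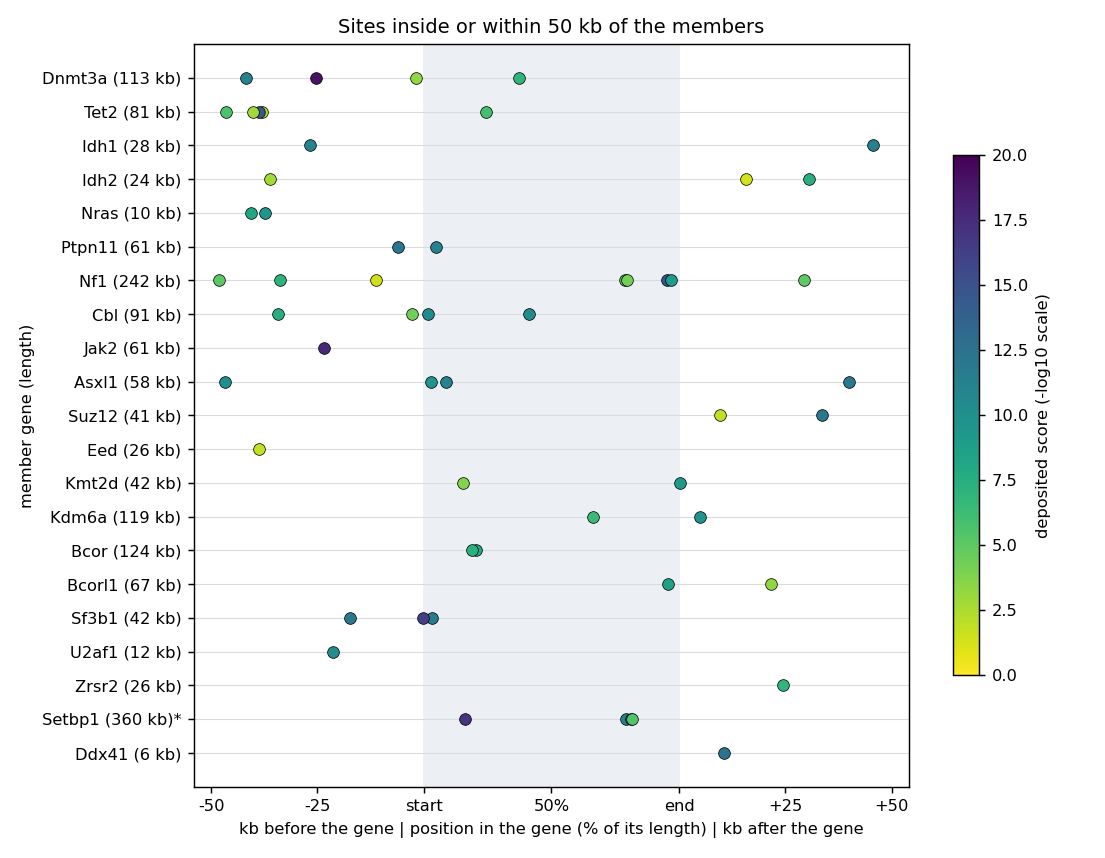
Position of all 56 sites along the 21 driver genes that had any (rows, gene length in brackets), read in the direction of transcription. The flanks are in kb and the shaded gene body is scaled to its length. The colour gives the deposited score on its −log10 scale. The asterisk marks Setbp1, drawn in coordinate order. Ptpn11, Cbl, Asxl1 and Sf3b1 each have a pair of sites within 10 kb of the start, and all but Ptpn11 also have sites farther away. The sites of Tet2 lie mainly 38.1 to 46.4 kb before the gene.

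The site that lay closest to the start of a driver gene was at Sf3b1 (chr1:54985169-55027501), which encodes the U2 snRNP subunit that recognises the intron branch point. Its summit, at position 55027584, stood 106 bases before the annotated start of transcription and scored 16.4, above 91.0% of all sites. A second site, with a score of 11.8, lay inside the gene 1.35 kb after the start. The third, with a score of 12.1, lay 17.3 kb before the gene and closer to Coq10b. Sf3b1 was the only one of 25 driver genes with a RefSeq promoter entry (4.0%) that had a summit in the window from 250 bases before to 50 after a start, against 3.03% of the other genes with an entry. Such promoter sites usually scored lower. The 499 sites in promoter windows of protein-coding genes had a median score of 7.48, and 94.8% of them scored below the Sf3b1 site.

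The bases before the start are shown for the 3 driver genes that had a summit within 2 kb of an annotated start. Each run holds the 250 bases up to the start on the gene's own strand, from RefSeq on GRCm38.p6, with matches to GGAA or its complement TTCC in capitals. The runs are chr1:55027479-55027728 on the minus strand for Sf3b1, chr2:153345580-153345829 on the plus strand for Asxl1 and chr9:44234047-44234296 on the minus strand for Cbl.
Sf3b1: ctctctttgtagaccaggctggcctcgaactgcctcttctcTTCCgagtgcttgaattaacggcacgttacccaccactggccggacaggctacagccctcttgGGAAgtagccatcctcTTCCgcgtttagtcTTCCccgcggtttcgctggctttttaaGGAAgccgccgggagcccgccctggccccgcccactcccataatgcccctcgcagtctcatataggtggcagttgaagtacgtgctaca
Asxl1: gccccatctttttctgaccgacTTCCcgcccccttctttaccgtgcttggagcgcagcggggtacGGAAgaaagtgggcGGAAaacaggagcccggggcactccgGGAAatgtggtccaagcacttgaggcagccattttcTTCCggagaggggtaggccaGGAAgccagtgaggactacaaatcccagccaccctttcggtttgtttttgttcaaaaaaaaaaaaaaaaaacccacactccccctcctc
Cbl: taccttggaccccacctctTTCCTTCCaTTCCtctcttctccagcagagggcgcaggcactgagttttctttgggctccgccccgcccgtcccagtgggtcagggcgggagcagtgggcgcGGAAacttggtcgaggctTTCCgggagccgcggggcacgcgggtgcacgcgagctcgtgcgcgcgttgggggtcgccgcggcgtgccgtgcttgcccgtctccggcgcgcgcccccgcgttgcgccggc

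In the Sf3b1 run the summit falls on base 145, counted from the first base printed, and 5 matches to the core surround it. The nearest of them, TTCC over bases 135 to 138, ends 7 bases from the summit, and GGAA over bases 162 to 165 begins 17 bases from it. This core is common and marks nothing by itself. It was found on either strand in 93.1% of 21044 such runs of protein-coding genes and in 28 of the 30 of driver genes (93.3%). The longer string GGAAGT, or ACTTCC on the other strand, which contains the core, was found in 20.5% of all runs. It was found in 4 of the 30 of driver genes (13.3%), those of Asxl1, Nf1, Sf3b1 and Smc1a. The string GAGGAA, or TTCCTC on the other strand, which also contains the core, was found in 22.5% of all runs and in 9 of the 30 of driver genes, among them Cbl and Ptpn11. A match describes the letters and is not a bound site.

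Several driver genes had a summit in the first part of the transcribed region. Sf3b1 had one 1.35 kb after its start, Cbl one 1.36 kb after it, and Asxl1 a pair at 1.56 and 5.18 kb. Ptpn11 and Kmt2d followed with 1 site each, 2.92 and 3.67 kb after their starts. Of these 6 sites, 5 scored between 9.59 and 11.8, above the median of the list, and the one in Kmt2d scored 3.71. Counted over genes of at least 10 kb with an annotated start, 5 of 22 driver genes (22.7%, interval 10.1 to 43.4) had a site inside the gene up to 10 kb after a start, against 9.73% of the other genes, just below the interval. This count was made after the positions had been seen. Within 10 kb of a start in either direction, it was 6 of 25 driver genes (24.0%) against 17.6%.

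Among the signalling genes, all 5 had a site within 50 kb (background 50.3%) and 3 had one within 10 kb of an end (22.4%), counts too small to set the class apart. Ptpn11 (chr5:121130533-121191397), which encodes the phosphatase SHP2 that relays receptor signals to RAS, had 1 site within its span (score 11.1) and 1 site 6.18 kb upstream (12.2). No other gene end was closer to either of them. Cbl (chr9:44142976-44234259), a ubiquitin ligase gene that turns off activated receptor kinases, had 4 sites. Those inside the gene, 1.36 and 37.4 kb after the start, scored 10.4 and 10.5. One 2.68 kb upstream scored 4.34, and one 34.4 kb upstream (7.51) stood 0.043 kb from an end of Nlrx1 instead.

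Nf1 (chr11:79339590-79581609), the gene of the RAS-inactivating protein neurofibromin, had 8 sites, the most of any driver gene. The same or a higher number was found at 0.431% of other genes. That share covers genes of all lengths, with a median of 17.3 kb, whereas Nf1 is 242 kb long. Genes of similar length were not counted apart. Its best site, with a score of 14.5, lay inside the gene, 11.04 kb from its 3′ end, and another of 9.10 lay 7.52 kb from that end. A further pair inside the gene, with scores of 4.99 and 4.23, stood 0.054 and 1.63 kb from an end of Evi2, one of the short genes nested within Nf1. The 4 sites in the flanks scored between 1.44 and 7.06. Of these, the one 48.2 kb upstream was nearer to Wsb1, and the one downstream lay inside Rab11fip4. Jak2 (chr19:29251803-29313095), the cytokine receptor kinase gene, had a single site, 23.5 kb upstream, with a score of 17.7, above 93.5% of all sites. The nearest end of another gene was 84.5 kb from it. Nras, a RAS GTPase gene, had a pair of sites 37.2 and 40.7 kb upstream (9.59 and 8.19).

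All 4 genes of DNA methylation and its metabolism had sites within 50 kb (background 50.3%), and Dnmt3a was the 1 of 4 with one within 10 kb of an end (22.4%). So small a class was not tested against the background. Dnmt3a (chr12:3801559-3914443), a de novo DNA methyltransferase gene, had 4 sites. The one 25.3 kb upstream scored 19.1, the highest of all 56, and the one 41.9 kb upstream scored 11.2. Both lay inside the neighbouring gene Dtnb. The sites closer to Dnmt3a were weaker, with scores of 3.28 at 1.74 kb upstream and 6.98 inside the gene.

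Tet2 (chr3:133463677-133545136), whose product oxidises methylated cytosine, had 1 internal site of score 6.00 and a group of 4 upstream, 38.1 to 46.4 kb from the gene. The group was led by 1 site of score 14.6 at 38.7 kb, and the others scored 2.26, 2.82 and 5.64. The nearest end of any other protein-coding gene, that of Ppa2, was 147 to 213 kb away from them, so all 5 sites had Tet2 as their nearest gene. Idh1 and Idh2 encode isocitrate dehydrogenases, whose mutant forms make a metabolite that inhibits TET enzymes. Idh1 had a site on each side, 26.8 kb upstream inside Pikfyve (11.2) and 45.6 kb downstream (11.3). The 3 sites around Idh2 scored 1.35, 2.76 and 7.48 and were all nearer to another gene.

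Of the 7 Polycomb and histone-modifier genes, 4 had a site within 10 kb (background 22.4%) and 5 one within 50 kb (50.3%). The class is small, these backgrounds cover genes of all lengths, and whether the class stands apart was not tested. Asxl1 (chr2:153345830-153404007), a Polycomb-associated gene, had 2 sites inside, with scores of 9.59 and 11.2, both nearer to its own start than to any other gene end. It also had one of 10.2 lying 46.6 kb upstream inside Kif3b and one of 12.02 lying 39.9 kb downstream inside Nol4l. Kmt2d (chr15:98831669-98874077), a histone H3 lysine methyltransferase gene, had the site of score 3.71 named above and one of 9.20 that lay 0.175 kb beyond its 3′ end. The summit of score 9.20 was inside Prkag1, 0.014 kb from the end of that gene. Kdm6a, the gene of a demethylase that removes the Polycomb mark, had a site inside (6.41) and one 4.86 kb downstream (9.71). Among the subunit genes of Polycomb repressive complex PRC2, Suz12 had a site of score 1.85 at 9.52 kb downstream, which was nearer to Crlf3, and one of 12.02 inside Crlf3. Eed had 1 site 38.8 kb upstream (1.76), and the nearest site to Ezh2 was 294 kb away. Kmt2a, the gene rearranged in mixed-lineage leukaemia, had its nearest site at 169 kb.

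Suz12 is also the gene nearest to the 10 kb limit on the inner side, at 9.52 kb. On the outer side stands Ddx41, an RNA helicase gene, whose nearest site (12.6) lay 10.6 kb downstream and 3.40 kb from Dok3.

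Both BCOR corepressor genes, which act with a variant Polycomb complex, had sites inside (background 16.6% over all lengths). Bcor is 124 kb and Bcorl1 66.7 kb long. Among genes at least as long as the median driver gene, the background was 36.7%. The class holds too few genes to be set apart from either background. Bcor had a pair 23.1 and 25.1 kb after its start, with scores of 7.29 and 7.81 and the nearest end of another gene 451 and 452 kb away. Bcorl1 had one of 8.56, 2.85 kb from its 3′ end, and one 21.7 kb downstream (3.28) that lay inside Elf4, an ETS factor gene.

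**Figure D3:**
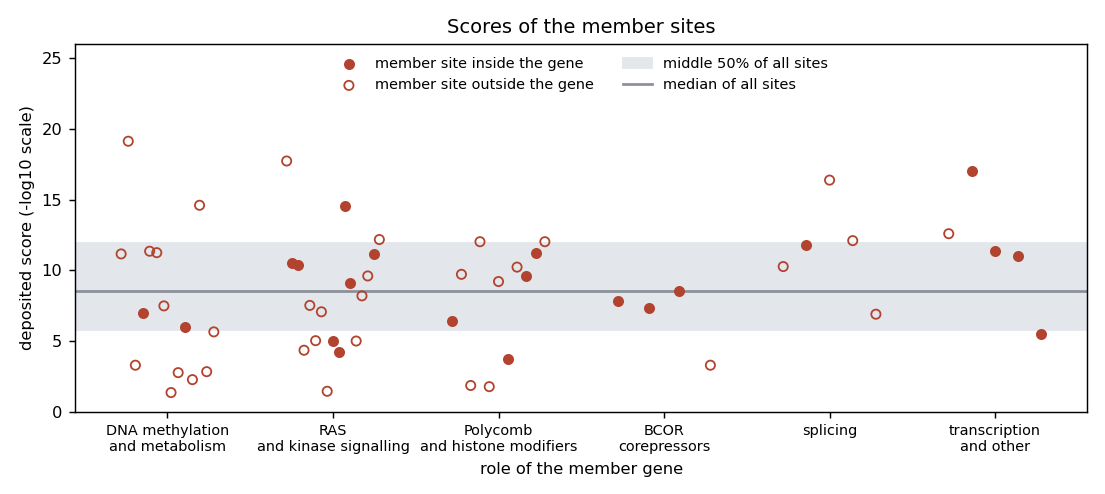
Deposited score (−log10 scale, y axis) of each site inside (filled) or outside (open) a driver gene, grouped by the role of the gene (x axis). The line and band give the median (8.56) and the quartiles (5.78 and 11.9) of the whole list. Nucleophosmin and cohesin genes had 0 sites and are not drawn. The median over the 14 sites at DNA methylation genes was 6.49 and that over the 5 sites at splicing genes 11.8. Sf3b1 alone held 3 of those 5 sites, so these medians do not set the classes apart.

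The 4 cohesin genes, whose products belong to the complex that holds sister chromatids and DNA loops, had 0 sites within 50 kb. The nearest sites lay 80.2 kb from Stag2, 85.1 kb from Rad21, 118 kb from Smc1a and 151 kb from Smc3. The median distance of the other protein-coding genes was 49.1 kb, and these 4 distances exceeded those of 59.7% to 72.2% of the other genes. Against the other genes of chromosome X alone, whose median was 285 kb, the X-linked Stag2 and Smc1a were closer than most, with distances above those of 26.6% and 33.0% of them. A lack of sites within 50 kb is common, since only 50.3% of other genes had one.

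Of the 4 splicing genes, 3 had a site within 50 kb (background 50.3%), and Sf3b1 was the 1 with a site within 10 kb of an end (22.4%). U2af1, which encodes the small subunit of the 3′ splice site factor U2AF, had 1 site 21.4 kb upstream (10.3), inside Cryaa. Zrsr2, the gene of a related factor of the minor spliceosome, had 1 site 24.4 kb downstream (6.89) that stood 0.212 kb from an end of Ap1s2. Srsf2, a serine and arginine rich splicing factor gene, had none nearer than 223 kb.

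Npm1, the nucleolar chaperone gene that is among the most often mutated in AML, had its nearest site at 508 kb, farther than 89.5% of other genes. Phf6, a PHD finger gene on chromosome X, had the most distant one of all driver genes, at 1835 kb, farther than 81.8% of the other genes of that chromosome. Wt1, a zinc finger factor gene, had its nearest site at 109 kb with a score of 15.5. Setbp1 (chr18:78750378-79110444), whose product stabilises the oncoprotein SET, is the longest of the 31 genes at 360 kb. It had 4 sites, all inside the gene and more than 50 kb from its ends. One scored 17.02, above 92.4% of all sites, and the others 5.50, 11.0 and 11.3.

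**Figure D4:**
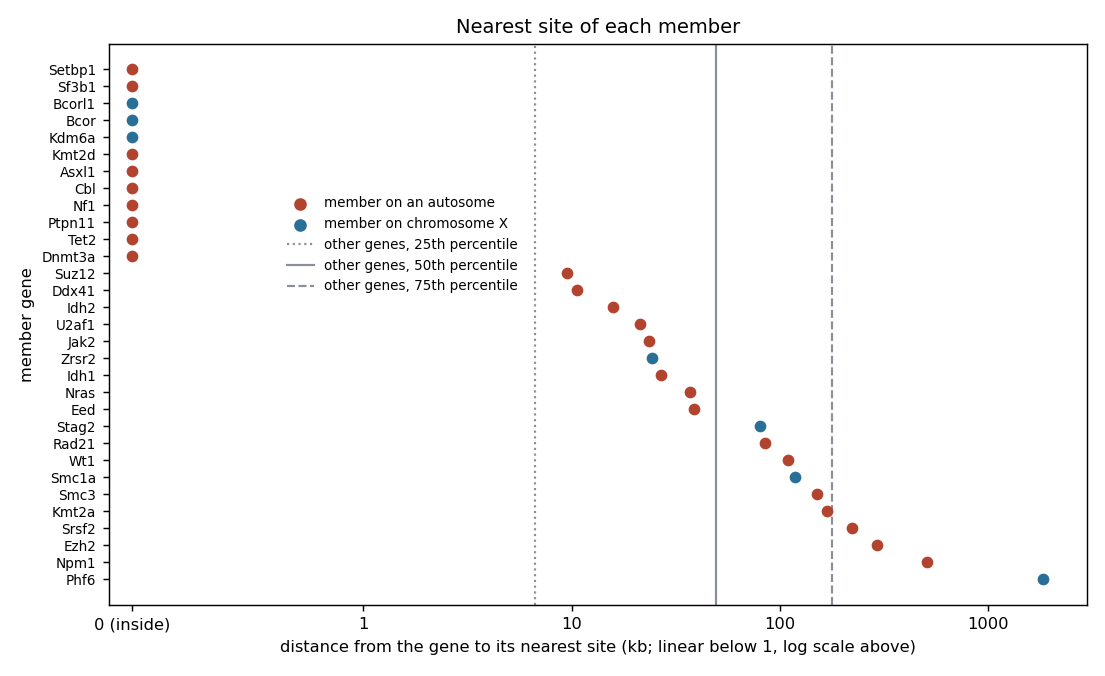
Distance in kb from each of the 31 driver genes to its nearest site (x axis, linear below 1 kb and logarithmic above, 0 for a site inside the gene), ordered by distance. Blue points are genes on chromosome X, and the vertical lines give percentiles of the other protein-coding genes. The 12 genes with a site inside stand at the left, and Phf6 at 1835 kb is the farthest.

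Chromosome X held 7 of the driver genes (Kdm6a, Bcor, Bcorl1, Stag2, Smc1a, Zrsr2 and Phf6). The list has few sites there, so these genes were set against the same chromosome. Within 10 kb of an end, 2 of the 7 had a site (28.6%, interval 8.22 to 64.1), against 8.24% of the other X-linked genes. Inside or within 50 kb it was 4 of 7 (57.1%) against 20.5%. The background at 10 kb stood at the lower bound of the interval, the genes are few, and they are long (26.1 to 128 kb). On the autosomes, 8 of 24 driver genes (33.3%, interval 18.0 to 53.3) had a site within 10 kb, against 23.0%.

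Partner genes of the same pathways, which are not in the list of 31, were counted in the same way. Of the 93 partners in 5 pathway lists, 23 (24.7%) had a site within 10 kb of an end, near the background of 22.4%, and 53 (57.0%) had one inside or within 50 kb, against 50.3%. With a list of 20 other genes mutated in AML, the counts were 32 of 112 (28.6%) within 10 kb and 68 of 112 (60.7%) within 50 kb. RAS and kinase signalling partners had a site within 10 kb in 7 of 21 cases (33.3%), led by Mapk3, the ERK1 kinase gene, with a site of score 11.8 at 0.186 kb from its end, and by Map2k1, a MEK kinase gene (10.4). Splicing partners had one in 8 of 19 cases (42.1%), led by U2af2, the partner subunit of U2af1 (12.7), and by Srsf3 (9.71). Polycomb and trithorax partners had one in 5 of 28 cases (17.9%), led by Kmt2b (14.7) and Kdm2b (11.0).

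DNA methylation partners had one in 2 of 10 cases, namely the Tet2 paralogues Tet3 (5.26) and Tet1 (4.23). Cohesin partners had one in 1 of 15 cases (6.67%), which was Pds5b, a cohesin regulator gene, with a site of score 8.35. Of 20 other genes mutated in AML, 10 had a site within 10 kb (background 22.4%). They were led by Csf3r, the G-CSF receptor gene (18.5), and by the cyclin gene Ccnd3 with 4 sites (highest score 17.9). That list holds myeloid receptors and lineage factors and, like the others, was chosen with earlier results of these data known. What lies behind its share was not tested.

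**Figure D5:**
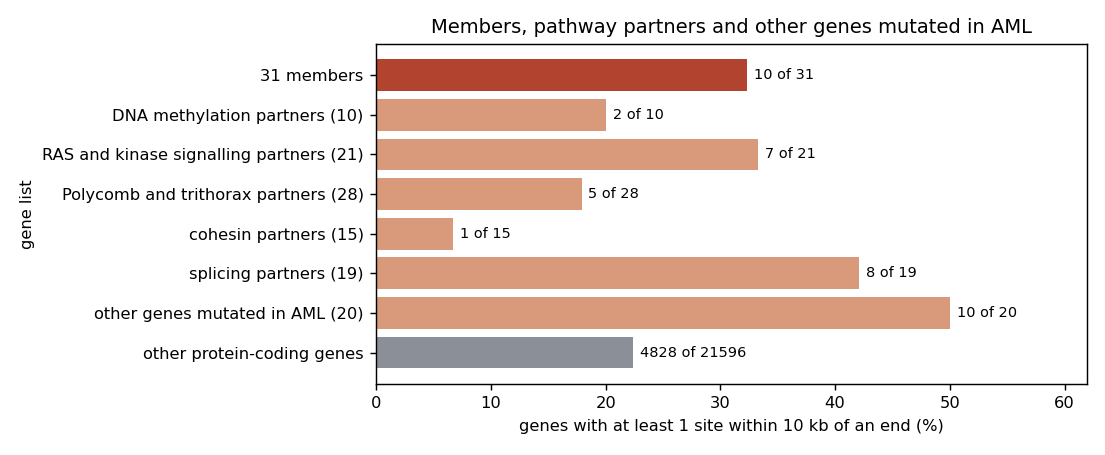
Share of genes (%, x axis) with at least 1 site within 10 kb of an end, for the 31 driver genes (red), 5 lists of pathway partners and 1 list of other genes mutated in AML (light, number of genes in brackets) and all other protein-coding genes (grey). The counts stand beside the bars. Shares ran from 1 of 15 cohesin partners to 10 of 20 other genes mutated in AML, with the background at 22.4%.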

How the data were processed

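The series holds 5 ChIP-seq libraries and 1 deposited list of summits for all of them. The submitters' processing notes name CASAVA 1.8.2, MACS2 and build mm10. No aligner, setting or MACS2 version is named in the sources used here. The deposited value of each summit is a −log10 score of the peak caller, from a p-value or a q-value (which of them is unknown). The list's name sets high against low, so it is read as sites of stronger binding in PU.1 High than in PU.1 Low cells.

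Positions are 1-based. The 5 summits off chromosomes 1 to 19 and X were left out. Genes are the protein-coding entries of a RefSeq table of GRCm38.p6, whose coordinates are those of mm10, and strands and starts come from the RefSeq promoter table, which held 25 of the 31 genes and 17273 of all 21627. Distances run from a summit to either gene end (10 kb) or to the gene span (50 kb). Shares have 95% Wilson intervals. No test was made, because no library has values of its own. The counting was checked on simulated sites (Python 3.11.15, pandas 2.3.3, scipy 1.17.1).

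The genes and lists were chosen with earlier results of these data known. All 31 genes are accounted for, those with a site inside or within 10 kb in full, and of each partner list the 2 genes with the highest-scoring site within 10 kb are named. Alternatives were other windows, a score of at least 10, gene spans, the nearest gene only and removal of chromosome X. Distances to starts, the division by gene length and the count after starts were added after the data were seen.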

Additional observations from a re-analysis of the deposited data

How the results depend on the processing

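Of the 10 driver genes with a site within 10 kb of an end, 2 were left at 1 kb (Kmt2d and Sf3b1, 6.45% against 6.41% of other genes) and 4 at a score of at least 10 (Asxl1, Cbl, Ptpn11 and Sf3b1, 12.9% against 9.08%). At 50 kb there were 20, by distance to annotated starts 6 of 25, and among the genes shorter than the median driver gene 3 of 15. Windows of 5 and 20 kb gave 8 (25.8% against 15.1%) and 13 (41.9% against 32.2%), and gene spans 13 (41.9% against 27.8%). The nearest gene only gave 9, without Suz12 (29.0% against 16.5%), and the autosomes 8 (33.3% against 23.0%). At 1 kb the shares were about equal, and among the shorter genes those 3 of 15 faced 21.7%. Under the other settings the share of driver genes stood above that of other genes. All settings recount the same genes, so they add no separate support for an excess.

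On chromosome X, the 2 genes became 0 at 1 kb and 0 at a score of at least 10, each against 2.4% of the other X-linked genes. At 50 kb the count there was 4 (57.1% against 20.1%). Of the 112 genes in the partner and other AML lists, 32 had a site within 10 kb, 11 within 1 kb (9.82% against 6.39% of the remaining genes), 21 within 5 kb (18.8% against 15.1%), 66 within 50 kb (58.9% against 49.5%) and 21 by the nearest gene only (18.8% against 16.5%). At a score of at least 10 it was 9 (8.04%), below the remaining genes (9.09%). The 21 driver genes with a site inside or within 50 kb became 13 at a score of at least 10 (41.9% against 26.8% of other genes). For the gene span alone they became 12 (38.7% against 16.6%). The 56 sites became 23 at a score of at least 10 (median score 11.8), 32 within 20 kb and 21 inside genes. Wider windows and lower thresholds add sites by construction. No paired analysis was possible because the list holds no values per library, and for the same reason no replicate could be left out. Depth, and with it the smallest gain of binding the list could hold, is unknown.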
